A study of Mus musculus with 4 samples.

Results

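The distal part of TAD6 is a gene-dense stretch of mouse chromosome 3 beside the epidermal differentiation complex, the cluster of skin barrier genes. A contact, meaning a pair of HindIII fragments joined by ligation, was taken as a member when the midpoint of at least 1 of its fragments lay above 94.215 Mb and below 94.8275 Mb (mm9), a window of 612.5 kb. The window held 112 of the 712 fragments measured, 56 read by forward and 56 by reverse probes, and 32641 of the 111588 contacts listed in any library had an end in it. Of these, 6271 were listed in all 4 libraries, and 1110 of the 6271 had both ends in the window. The right edge of the window is the border between TAD6 and TAD7 that the study drew in keratinocytes, and its left edge lies inside TAD6, between Lingo4 and Tdrkh.

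Spatial contacts were measured by chromosome conformation capture carbon copy (5C), in which cross-linked chromatin is cut with HindIII, ligated and read with paired probes. Primary epidermal keratinocytes were compared with primary thymocytes, both from newborn C57BL/6 mice with no allele or agent named in the labels, and 2 libraries were prepared of each cell type. Keratinocytes had been plated on collagen for 15 hours at 32°C in low-calcium medium, thymocytes came straight from the thymus, and both were fixed with 1% formaldehyde for 10 minutes. Thymocytes served as cells in which the barrier genes are silent, and the pooling of animals behind a library is not given in the sources used here.

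A topologically associating domain (TAD) is a stretch of chromosome whose parts meet each other more often than they meet the neighbouring stretches. Enhancers usually find their promoters inside such domains, and contacts between domains are rarer at a given distance. Broadly expressed genes often sit in gene-rich domains that lie close to other gene-rich domains in the nucleus. Expression was not analysed here, so the labelled cell types could not be checked against their marker genes.

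The 17 genes listed as protein-coding in the window serve many roles. Mrpl9 encodes a protein of the mitochondrial ribosome and Psmb4 a subunit of the proteasome. Snx27 sorts proteins in endosomes and Pi4kb makes phosphatidylinositol 4-phosphate at the Golgi. Pogz is a heterochromatin-associated zinc finger protein, Rfx5 a regulator of MHC class II genes and Zfp687 a zinc finger protein. Cgn encodes cingulin of tight junctions and Tuft1 encodes tuftelin, and Selenbp1 and Selenbp2 are selenium-binding proteins. Tdrkh acts in the piRNA pathway of the germ line, Oaz3 is a testis antizyme and Celf3 a neuronal RNA-binding protein. The remaining genes are Riiad1, BC021767 and 1700040D17Rik, and the GENCODE annotation of the same build gives 1700040D17Rik as a lincRNA and BC021767 as a processed transcript. The window held 2.78 protein-coding genes per 100 kb, close to the 2.72 of TAD4, below the 4.24 of TAD3 and above the 0.238 and 0.635 of the gene-poor TAD2 and TAD5.

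Each contact was read through the genomic parts of its probes, 30 bases that end at a HindIII cut. The 9 shown belong to fragments to which the contacts below return, and the capitals mark the part of the HindIII site that the probe carries. All 9 matched mm9 at their stated positions, forward probes on the plus strand and reverse probes on the minus strand.
FOR_1428 (Tdrkh and Oaz3, chr3:94240962-94240991): tacagagttggtgtctaatgtcacagtAAG
FOR_1432 (Mrpl9, chr3:94253268-94253297): taagagttattctggactcatccagcaAAG
REV_1441 (Celf3, chr3:94297374-94297403): CTTcattgttgttccaaggttacagcttga
FOR_1456 (intron of Snx27, chr3:94339288-94339317): gaagagaatagctactaggccatccaaAAG
REV_1490 (beside Tuft1, within 10 kb of E12, chr3:94463384-94463413): CTTgggaagcaactgcctttggtgccacta
REV_1523 (intron of Cgn, within 10 kb of E13, chr3:94576905-94576934): CTTcatcctagcagctcaggtttgggttca
REV_1542 (before the Pogz start, chr3:94638375-94638404): CTTccccagtctactagtggagtaagaagg
FOR_1568 (between Psmb4 and Selenbp1, chr3:94710550-94710579): acagctgcagtcagtcactgcttgattAAG
FOR_1595 (intron of Pi4kb, within 10 kb of E14, chr3:94782093-94782122): gagctcaccacttaattatctcagtttAAG
The fragments themselves ran from 109 bp to 19759 bp with a median of 2128 bp, and the longest gap between neighbouring measured fragments was 41.4 kb.

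The 3 putative enhancers of the window were drawn by the study from histone marks in basal keratinocytes. E12 (chr3:94452724-94454716) lies in an intron of Tuft1, E13 (chr3:94584407-94588904) in an intron of Cgn, and E14 (chr3:94778499-94780163) overlaps an exon of Pi4kb. The letters TGANTCA, which AP-1 factors of the epidermis can bind and which read the same on both strands, occurred 2 times in E12, 3 times in E13 and 0 times in E14. Stretches of the same length across the locus held at least 1 such match in 45.6%, 73.7% and 40.2% of cases, so the letters are common at these lengths. The 2 stretches of E12 are shown with the match in capitals.
E12, chr3:94453332-94453358: accagctgcaTGACTCActcctcaaag
E12, chr3:94453637-94453663: tgaaaaccttTGAGTCAccttcaccat

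The libraries differed in how many contacts they listed, from 45861 in thymocyte library 1 to 95692 in keratinocyte library 1, which is 38.1% to 81.6% of the possible pairs. Within the window, keratinocyte library 1 listed 94.4% of the possible pairs, keratinocyte library 2 57.5%, thymocyte library 1 50.6% and thymocyte library 2 57.4%. The deposited values are corrected frequencies, so the read depth is unknown. Values below are therefore means over contacts listed in all 4 libraries unless stated otherwise, and the part of the unequal listing in them was not tested. With 2 libraries against 2, a two-sided exact permutation test cannot give p below 0.333, so no difference between the cell types could pass 0.05 in that test. The comparison then rests on the values of the 4 libraries and on whether the groups overlap.

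Contacts within the window had higher mean Z scores in keratinocytes than in thymocytes. The Z score is the distance of a contact's frequency above the average for its genomic distance, in units of the local spread in that library. Over the 1110 internal contacts the mean Z score was 0.976 and 0.818 in keratinocytes and 0.547 and 0.578 in thymocytes. Both keratinocyte libraries lay above both thymocyte libraries, with means of 0.897 ± 0.111 and 0.562 ± 0.0218 (SD, n = 2 each), a difference of 0.335 (exact permutation p = 0.333, adjusted p = 0.333 over the 8 partner regions). On the scale of log2 observed over expected frequency, the means were 0.31, 0.24, 0.01 and 0.10 in the same order. When each cell type was taken over its own list, the contacts listed in both of its libraries, the difference in Z score was 0.132.

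Single contacts showed the same lean. In 335 of the 1110 internal contacts (30.2%) both keratinocyte Z scores exceeded both thymocyte scores, against 21.1% of all 23395 contacts listed in all 4 libraries. The opposite order held in 102 internal contacts (9.19%), against 19.1% of all contacts.

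**Figure D1:**
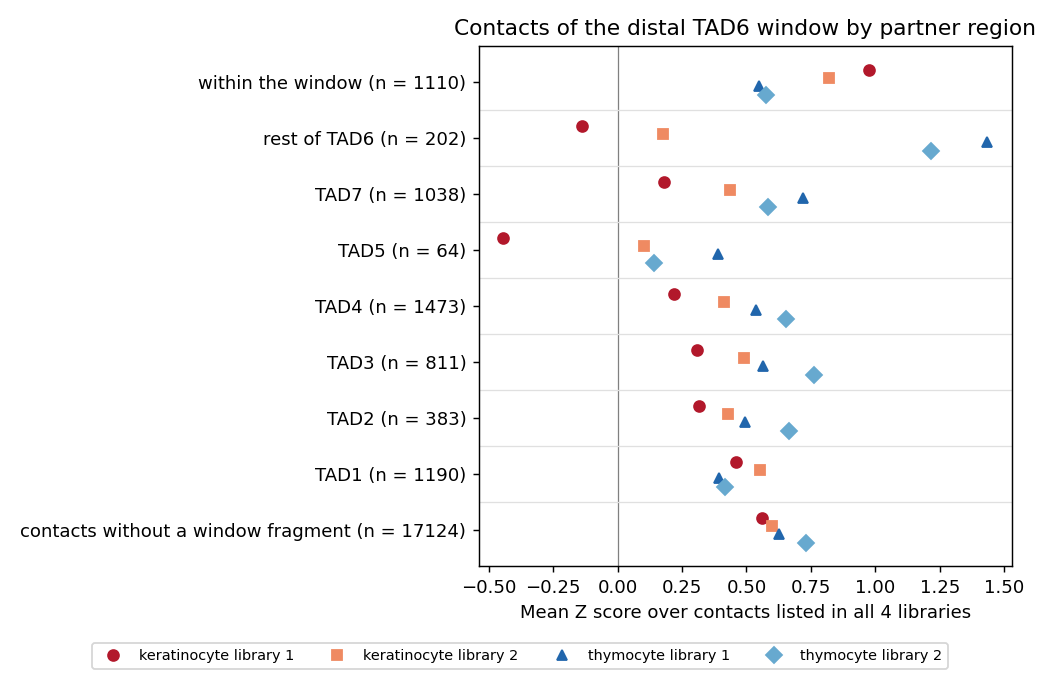
Mean Z score of the contacts of the window, by the region of the other fragment, for each of the 4 libraries (points), with the number of contacts in parentheses; the lowest line holds contacts with no end in the window. Keratinocyte points lie to the right of thymocyte points within the window and far to the left for the rest of TAD6.

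The higher keratinocyte Z scores within the window lay at the longest and the shortest distances. Among 526 internal contacts at least 200 kb apart, the mean Z score was 1.60 and 1.21 in keratinocytes and 0.782 and 0.766 in thymocytes. Here the median corrected frequency was 515 against a median expected frequency of 318 in keratinocyte library 1, and 228 against 175 in keratinocyte library 2. In thymocyte library 1 the same medians were 133 against 114, and in thymocyte library 2 137 against 118. Frequencies of different libraries are not on a common scale, so each observed value is read against the expected value of its own library. Contacts at least 200 kb apart inside the other TADs had nearly equal mean Z scores in the 4 libraries, from 0.620 to 0.640.

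Below 10 kb, 68 contacts had mean Z scores of 0.747 and 0.664 in keratinocytes and 0.0587 and 0.0258 in thymocytes. The median corrected frequency of these contacts lay below the median expected frequency in each library. It was 4913 against 4981 and 3242 against 5026 in keratinocytes, and 10320 against 16830 and 16330 against 28860 in thymocytes. Between 10 and 50 kb the 4 mean Z scores lay between 0.412 and 0.488 (143 contacts), and between 50 and 200 kb from 0.337 to 0.447 (373 contacts). In the 50 to 200 kb band the groups overlapped, and the difference changed sign when keratinocyte library 2 or thymocyte library 1 was left out (-0.0363 and -0.0528, against 0.00246 with all 4). At 10 to 50 kb both thymocyte libraries were slightly higher, with a difference of -0.0505. Below 10 kb, contacts inside the other TADs also had higher mean Z scores in keratinocytes, 0.593 and 0.390 against 0.214 and 0.345 (318 contacts).

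**Figure D2:**
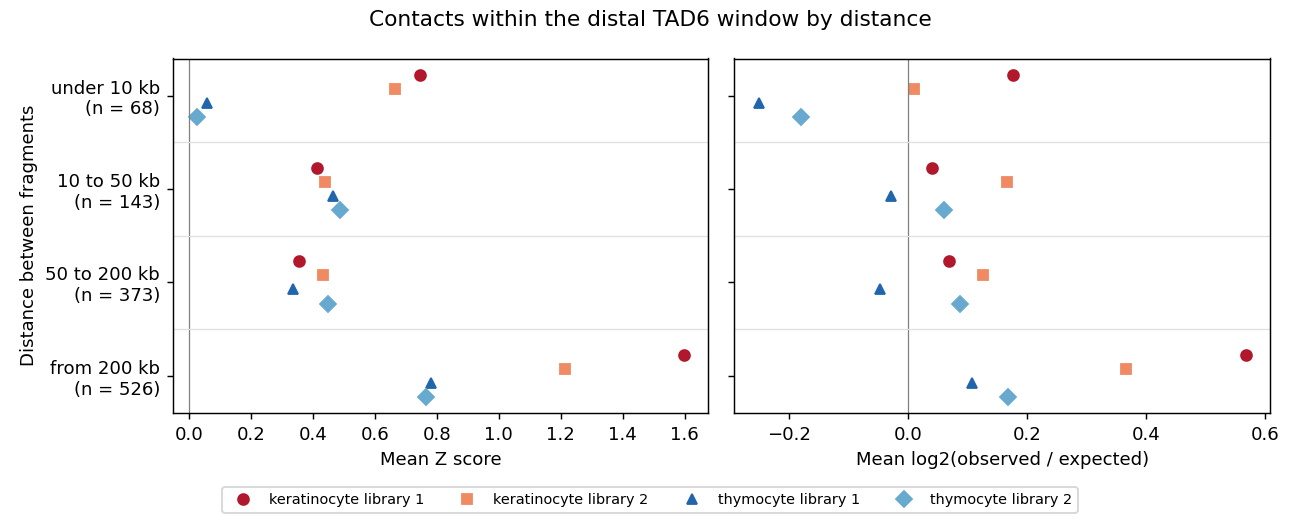
Mean Z score (left) and mean log2 of observed over expected frequency (right) of contacts within the window in 4 distance bands, 1 point per library. On both scales the keratinocyte libraries stand above the thymocyte libraries below 10 kb and at 200 kb and beyond.

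The long-range excess joined the genes from Tdrkh to Snx27 with those from Pogz to Psmb4, on the other side of Tuft1 and Cgn. The window was divided, after its values had been seen, at the gaps between Snx27 and Tuft1, Cgn and Pogz, and Psmb4 and Selenbp1. Between the Tdrkh-Snx27 segment (31 fragments) and the Pogz-Psmb4 segment (25 fragments), 245 to 489 kb apart, the mean Z score over 165 contacts was 2.70 and 2.08 in keratinocytes and 1.09 and 0.928 in thymocytes. The mean log2 observed over expected frequency was 0.98 and 0.56 against 0.24 and 0.22. Both keratinocyte libraries exceeded both thymocyte libraries in 44.2% of these contacts, and this was the highest mean among the 10 pairs of segments in all 4 libraries. Since the segments were drawn with the values in view, these are descriptions and no test was made.

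The other pairs of segments were closer between the cell types. The Tdrkh-Snx27 segment gave 1.13 and 0.730 in keratinocytes and 0.655 and 0.623 in thymocytes with the Selenbp1-Zfp687 segment (200 contacts). Inside the Tdrkh-Snx27 segment itself the order was reversed, with 0.0944 and 0.185 in keratinocytes and 0.692 and 0.649 in thymocytes (111 contacts), although the medians, from 0.124 to 0.232, overlapped. Inside the Selenbp1-Zfp687 segment, which holds Rfx5 and Pi4kb, keratinocytes were higher again, with 0.872 and 0.573 against 0.111 and 0.391 (106 contacts). Leaving out the fragment with the most called keratinocyte contacts between the Tdrkh-Snx27 and Pogz-Psmb4 segments (REV_1542, shown above) gave 2.66 and 1.89 against 0.857 and 0.832.

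**Figure D3:**
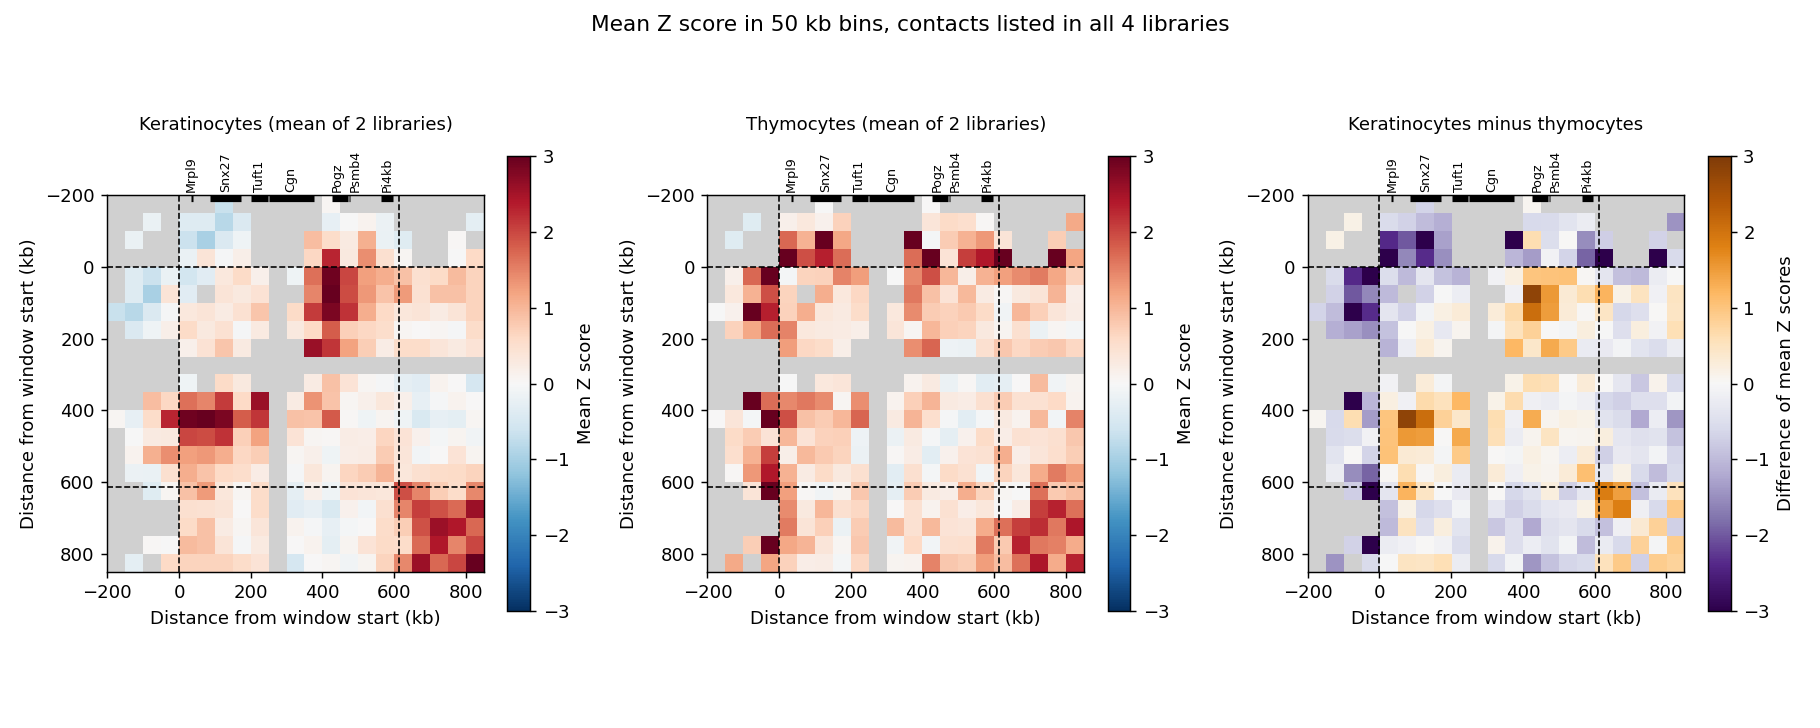
Mean Z score in bins of 50 kb in keratinocytes, in thymocytes and their difference, over the window (dashed lines) and its flanks; both axes give the distance from the window start in kb, grey bins held fewer than 3 contacts, and black bars mark genes. The Tdrkh-Snx27 part meets the Pogz-Psmb4 part in a block that is stronger in keratinocytes, and the bins just left of the window are stronger in thymocytes.

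**Figure D4:**
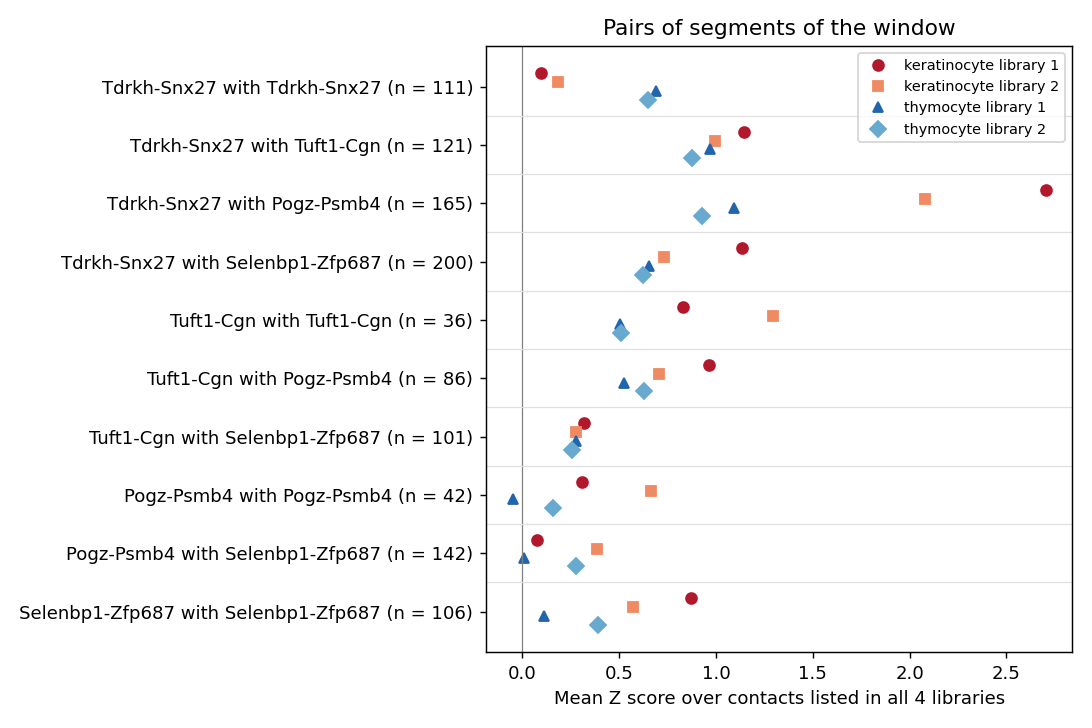
Mean Z score per library (points) for the 10 pairs of segments of the window, with the number of contacts in parentheses. The pair of the Tdrkh-Snx27 and Pogz-Psmb4 segments has the highest value in each library and the widest distance between keratinocytes and thymocytes.

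Toward the rest of TAD6 the order of the cell types was the opposite. That stretch, to the left of the window, includes the thioesterase genes Them4 and Them5. Over 202 contacts with the window the mean Z score was -0.138 and 0.175 in keratinocytes and 1.43 and 1.22 in thymocytes, a difference of -1.31 (exact permutation p = 0.333, adjusted p = 0.333). Mean log2 observed over expected frequencies were -0.40 and -0.06 against 0.34 and 0.20. The medians of the Z score also kept the groups apart, at -0.191 and 0.103 against 0.452 and 0.285, but their difference was smaller at -0.412. The share of possible pairs listed here ran from 36.4% in thymocyte library 1 to 80.6% in keratinocyte library 1.

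Both thioesterase genes had this order. Fragments nearest to Them5 had mean Z scores with the window of -0.165 and -0.0155 in keratinocytes and 2.87 and 1.38 in thymocytes (40 contacts). Those nearest to Them4 gave -0.470 and 0.0547 against 0.494 and 0.625 (104 contacts). The thymocyte libraries exceeded the keratinocyte libraries at each.

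Contacts across the right edge of the window were set against internal contacts. The study placed this border at a minimum of contacts in the same keratinocyte libraries, which favours a larger drop in keratinocytes, so the values are a description and no test is given. From the thymocyte libraries the study also drew a border between TAD6 and TAD7, at a similar position, which was not used here. At 50 to 400 kb, the mean log2 observed over expected frequency of 667 internal contacts was 0.30 and 0.26 in keratinocytes, and that of 561 contacts between the window and TAD7 was -0.10 and 0.01. In thymocytes the internal values were 0.02 and 0.13 and those across the border -0.01 and 0.09. The drop across the border was therefore 0.40 and 0.25 in keratinocytes and 0.03 and 0.03 in thymocytes, a difference of 0.29. Restricted to 100 to 300 kb, the difference was 0.19.

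Toward the other TADs the mean Z scores were lower in keratinocytes for TAD2 to TAD5 and TAD7 and higher for TAD1. With TAD7 they were 0.180 and 0.435 against 0.719 and 0.584, with TAD4 0.218 and 0.411 against 0.537 and 0.655, and with TAD3 0.308 and 0.489 against 0.564 and 0.762. With TAD2 they were 0.314 and 0.430 against 0.494 and 0.665, and with TAD5 -0.443 and 0.104 against 0.389 and 0.141 (64 contacts). Contacts with TAD1, up to 4.91 Mb away at the S100 end of the locus, gave 0.459 and 0.553 against 0.394 and 0.418. The groups did not overlap in any of the 6, and each exact permutation p was 0.333.

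The medians gave another order. By the median over contacts, keratinocytes were instead higher toward TAD7, TAD4 and TAD3 (differences of 0.0548, 0.156 and 0.0986), and toward TAD1 the difference was 0.00577. Contacts without an end in the window had mean Z scores of 0.560 and 0.600 in keratinocytes and 0.628 and 0.733 in thymocytes, so thymocytes were also slightly higher where the window took no part.

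Compared with the inside of other domains, the window lay below TAD7 in each library and below TAD1 in each but keratinocyte library 1. Internal contacts of TAD1, which holds S100 genes, had mean Z scores of 0.758 and 0.984 in keratinocytes and 0.922 and 1.00 in thymocytes (1946 contacts). The window minus TAD1 was 0.218 and -0.166 in keratinocytes and -0.375 and -0.424 in thymocytes, groups that did not overlap (difference 0.425, exact permutation p = 0.333; 0.0886 by the median). Without keratinocyte library 1 this difference was 0.233 and without keratinocyte library 2 it was 0.617. Internal contacts of TAD7 reached 2.03 and 1.60 against 1.63 and 1.36 (419 contacts). The difference between the cell types inside TAD7 was 0.319 with overlapping groups, near the 0.335 inside the window. A higher internal mean in keratinocytes was therefore not particular to the window. The window lay below TAD7 by 1.05, 0.780, 1.08 and 0.779, and the cell types overlapped in that comparison (exact permutation p = 1). The part of TAD6 outside the window had 15 internal contacts in all 4 libraries, too few to give a stable mean.

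Called contacts were spread unevenly over the partners of the window. A contact counted as called in a cell type when each of its libraries gave it a q-value under 0.05. Keratinocytes had 267 such contacts with an end in the window among 15864 listed in both libraries, 1.68% where the whole series gave 1.99%. Thymocytes had 353 among 8282, 4.26% where the series gave 4.03%. Within the window the shares were 4.42% in keratinocytes (71 of 1607) and 5.45% in thymocytes (70 of 1285). Toward TAD7 they were 0.580% (11 of 1897) and 4.01% (47 of 1172), toward TAD4 0.751% (29 of 3861) and 4.24% (88 of 2076), and toward the rest of TAD6 1.80% (8 of 444) and 10.0% (28 of 279). For keratinocytes the internal share was thus above that of the series and the share across the right border was below it.

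Of the 6271 members with a value in every library, 51 were called in keratinocytes and not in thymocytes (0.813%, 1.45% in the series), 198 in thymocytes and not in keratinocytes (3.16%, 3.19% in the series) and 26 in both (0.415%, 0.581% in the series). Of the 51 keratinocyte-specific contacts 24 lay within the window (2.16% of 1110), 12 reached TAD1 (1.01% of 1190) and 2 reached TAD7 (0.193% of 1038). Of the 198 thymocyte-specific contacts 37 lay within the window (3.33%), 18 reached TAD1 (1.51%) and 43 reached TAD7 (4.14%). A contact that was called in 1 cell type was not thereby shown to differ between them. In limma, fitted to the Z scores of all 23395 contacts, 0 contacts passed an adjusted p of 0.05 (smallest 0.767). At an unadjusted p under 0.05, 211 contacts of the window were higher in keratinocytes (3.36%, 2.97% in the series) and 137 lower (2.18%, 2.14% in the series). This balance followed which cell type was left with 1 library, in the window as in the series. Without either thymocyte library more contacts were lower in keratinocytes, and without either keratinocyte library more were higher. With eBayes run without a trend on all libraries, 150 contacts of the window were higher (2.39%, 2.53% in the series) and 157 lower (2.5%, 2.42% in the series).

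The strongest keratinocyte-specific contacts joined genes of the window to each other and to S100 and Sprr genes of the epidermal differentiation complex and its flank. An intron of Pi4kb (FOR_1604) met a fragment nearest to the S100a6 start, 4362 kb away, with Z scores of 7.66 and 7.79 in keratinocytes and 1.44 and 5.72 in thymocytes. The intron of Snx27 in FOR_1456 met a fragment beside Cgn (REV_1537), 268 kb away, with 7.54 and 10.9 against 2.07 and 2.35. FOR_1568, between Psmb4 and Selenbp1, met the Celf3 fragment REV_1441, 405 kb away, with 5.49 and 15.3 against -0.481 and -1.47. In corrected frequency, this last contact reached 1065 where 313 was expected in keratinocyte library 1 and 1136 where 163 was expected in keratinocyte library 2. In thymocytes it stood at 73.6 where 91.2 was expected and 49.0 where 116 was expected. FOR_1604 and FOR_1568 were sparsely listed, with 51 and 48 contacts in both keratinocyte libraries and 11 and 5 in both thymocyte libraries.

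A fragment over Pogz (REV_1559) met Sprr2k, a small proline-rich gene of the barrier cluster 2440 kb away, with Z scores of 5.22 and 7.48 in keratinocytes and -1.68 and -0.740 in thymocytes. Its fitted difference in limma was 7.56 with a standard error of 2.32, and its adjusted p was 0.767. The fifth contact joined FOR_1543 beside the Pogz start to a fragment over Snx27, 320 kb away, with 5.14 and 10.2 against 5.14 and 1.98. Here thymocyte library 1 equalled keratinocyte library 1, so the groups overlapped. Of the 5, 3 lay inside the window.

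The strongest thymocyte-specific contacts all left the window for the epidermal differentiation complex. A fragment between Mrpl9 and Riiad1 (FOR_1435) met the surroundings of Crnn, the cornulin gene, 1310 kb away, with Z scores of 21.1 and 17.9 in thymocytes and 1.01 and 1.58 in keratinocytes. REV_1490 beside Tuft1 met an intron of S100a11, 1137 kb away, with 19.8 and 16.3 against 0.428 and -0.798. The others reached the surroundings of Ivl, the involucrin gene, with 15.4 and 24.5 against -1.06 and 6.87, of Lce3a with 13.8 and 11.7 against 0.224 and 6.97, and of Crct1 with 19.6 and 10.6 against 0.212 and 5.06. In the last 3 keratinocyte library 2 stood well above keratinocyte library 1, and each of the 5 had an adjusted limma p of 0.767. REV_1490 and the window fragment of the Ivl contact (FOR_1442) were sparsely listed, with 22 and 14 contacts in both thymocyte libraries. The window fragments of the Crnn, Lce3a and Crct1 contacts had 115, 110 and 102. Contacts whose Z score reached 25 had been removed from the tables before deposit.

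Contacts called in all 4 libraries again spanned the locus. The intron of Pi4kb in FOR_1595 met a fragment nearest to S100a16, 4411 kb away, with Z scores of 9.07 and 14.9 in keratinocytes and 7.60 and 7.72 in thymocytes. Introns of Snx27 (FOR_1454) met the surroundings of Lor, the loricrin gene, with 7.50 and 5.43 against 6.44 and 11.1. A fragment between Psmb4 and Selenbp1 (REV_1571) met the surroundings of Ivl with 5.93 and 5.01 against 5.72 and 5.86. FOR_1428 over Tdrkh and Oaz3 met REV_1542 before Pogz, 396 kb away, with 4.91 and 7.61 against 8.52 and 12.04. REV_1441 over Celf3 met an intergenic fragment 3497 kb away with 6.29 and 17.6 against 4.17 and 4.95. The gene start nearest to that fragment, of 9130204L05Rik, lay 114.5 kb from it.

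Most fragments of the window had at least 1 called contact. Of 112 fragments, 92 had at least 1 called contact in keratinocytes, 90 in thymocytes and 80 in both, with medians of 2.5 and 3 calls per fragment. The same count over all 712 fragments of the series is not given here, so these counts do not set the window apart. REV_1542, which lies 3.09 kb before the nearest Pogz start, had the most in both cell types, 16 of 224 listed contacts in keratinocytes and 18 of 135 in thymocytes. In keratinocytes 7 of its 16 led to the Tdrkh-Snx27 segment. REV_1609 beside Zfp687, the last fragment before the border, had 8 calls of 34 listed in keratinocytes and 0 of 6 in thymocytes.

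By gene, the mean Z score over all contacts of the fragments overlapping a gene body differed little between the cell types. Fragments overlapped 16 of the 17 genes, with no fragment over Selenbp2, and 13 genes had at least 100 contacts in all 4 libraries. Both thymocyte libraries exceeded both keratinocyte libraries for 5 genes (1700040D17Rik, Tdrkh, Snx27, Tuft1 and Pi4kb) and the reverse held for 2 (Pogz and Selenbp1, the latter with 3 contacts). The adjusted exact permutation p was at least 0.762 over the 16 genes. Keratinocytes were lower on average in 12 of the 16 by the mean but in 3 of the 16 by the median over contacts. All 23395 contacts showed the same order, with means of 0.515 and 0.577 in keratinocytes and 0.613 and 0.701 in thymocytes, which do not overlap. Their difference was -0.111 by the mean and 0.0642 by the median, so these gene counts do not set the window apart.

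Among the 13 genes with at least 100 contacts, Psmb4 had the highest mean over the libraries of each cell type, with 1.03 and 1.10 in keratinocytes and 0.938 and 1.30 in thymocytes (109 contacts). Pi4kb gave 0.472 and 0.516 against 0.643 and 0.665 (1071 contacts), and Snx27 0.475 and 0.459 against 0.569 and 0.527 (1223 contacts). Mrpl9 gave 0.708 and 0.719 against 0.861 and 0.653 (136 contacts), and Pogz 0.497 and 0.501 against 0.419 and 0.497 (736 contacts). For Mrpl9 and Psmb4 the groups overlapped, and for Pogz they nearly touched.

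Over internal contacts alone the order turned. Among 13 genes with at least 10 internal contacts, the keratinocyte mean exceeded the thymocyte mean in 11, the exceptions being Tdrkh (-0.0118) and 1700040D17Rik (-0.00414). Pogz had internal means of 0.992 and 0.851 in keratinocytes and 0.306 and 0.394 in thymocytes, and Snx27 1.24 and 0.950 against 0.785 and 0.626. Cgn gave 0.750 and 0.850 against 0.356 and 0.617, and Tuft1 1.06 and 0.728 against 0.617 and 0.402. In these 4 genes the groups did not overlap, nor did they for Oaz3 (1.75 and 1.57 against 0.220 and 1.55) and Riiad1 (1.09 and 1.09 against 1.08 and 0.678), where the gap was narrow. For Psmb4 the groups overlapped, with 2.56 and 1.03 against 1.58 and 1.41.

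**Figure D5:**
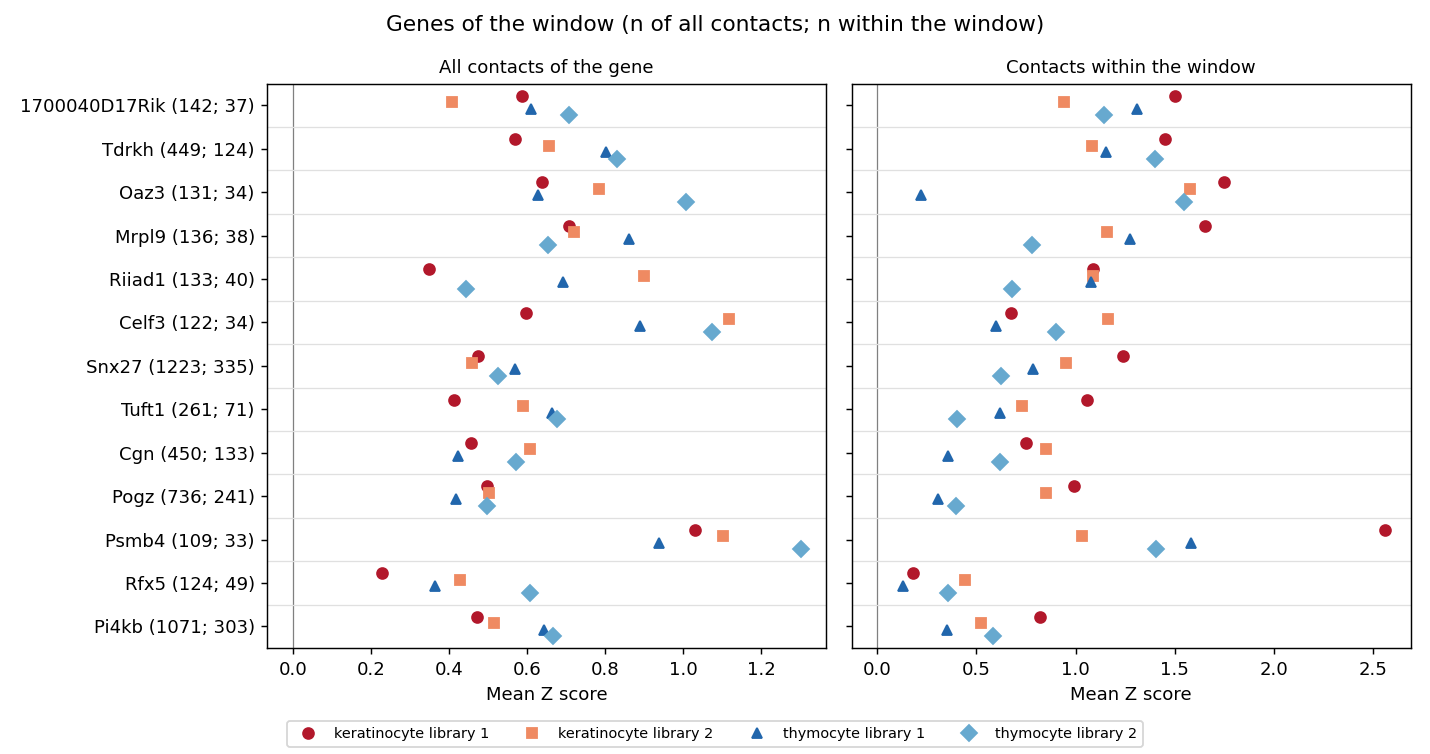
Mean Z score per library (points) of the 13 genes with at least 100 contacts, over all their contacts (left) and over contacts within the window (right); the numbers after each name count the contacts behind the left and right panels. The keratinocyte points of Snx27, Tuft1, Cgn and Pogz lie above the thymocyte points on the right.

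Grouped by role, the genes of the germ line and of neurons (Tdrkh, Oaz3 and Celf3) had 34 called contacts in keratinocytes and 49 in thymocytes (3.01% and 6.46% of those listed). Psmb4 and Mrpl9 had 22 and 25 (3.28% and 6.87%), and Snx27 and Pi4kb 74 and 118 (1.44% and 4.24%). Cgn, Tuft1, Selenbp1 and Selenbp2 had 40 and 44 (2.11% and 4.21%), Pogz, Rfx5 and Zfp687 43 and 35 (1.78% and 3.16%), and the remaining 3 genes 10 and 20 (1.81% and 6.13%). The series gave 1.99% and 4.03%. The nuclear regulators differed among themselves, with 1.99% and 3.26% for Pogz, 2.52% and 6.98% for Zfp687, and 0 of 334 and 2 of 152 listed contacts for Rfx5. Their shared value therefore does not describe each gene. No test was made between groups, which share fragments and contacts.

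The enhancers were taken as viewpoints over all contacts, then within the window and toward the rest of the locus. Fragments within 10 kb of E12 in Tuft1 had mean Z scores over 132 contacts of 0.0987 and 0.505 in keratinocytes and 0.546 and 0.946 in thymocytes (exact permutation p = 0.333), and the difference of -0.444 became -0.0710 by the median. It was -0.241 without keratinocyte library 1, -0.244 without thymocyte library 2 and -0.1155 over fragments within 5 kb. For E13 in Cgn they were 0.451 and 0.675 against 0.402 and 0.613 (479 contacts), with overlapping groups. For E14 in Pi4kb they were 0.365 and 0.463 against 0.563 and 0.550 (1061 contacts), a difference of -0.143 that became 0.143 by the median.

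Within the window the same fragments were higher in keratinocytes for E13, with 0.706 and 0.966 against 0.523 and 0.702 (134 contacts), and for E14, with 0.649 and 0.537 against 0.171 and 0.420 (308 contacts). Around E12 the internal values were 0.595 and 0.511 against 0.550 and 0.309 (35 contacts) and overlapped. Toward the rest of the locus the values were 0.248 and 0.433 against 0.724 and 0.603 for E14 (753 contacts) and -0.0802 and 0.503 against 0.545 and 1.18 for E12 (97 contacts), with thymocytes higher, and those for E13, 0.352 and 0.562 against 0.356 and 0.578 (345 contacts), overlapped. Whether internal and outward contacts of an enhancer differed between the cell types was not tested. Called contacts numbered 10 in keratinocytes and 8 in thymocytes for E12, 31 and 21 for E13, and 20 and 44 for E14. As shares of the listed contacts these were 1.68% and 4.85% for E12, 2.83% and 3.65% for E13, and 0.830% and 3.41% for E14, where the series gave 1.99% and 4.03%.

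The leading keratinocyte contacts of the enhancers were often listed in keratinocytes alone, which leaves the thymocyte value unknown. A Tuft1 intron within 10 kb of E12 (FOR_1485) met REV_1569 beyond Psmb4, 256 kb away, with Z scores of 11.1 and 17.2. REV_1490 near E12 met Npr1 with 6.03 and 16.9, and FOR_1485 met Dennd4b with 4.87 and 6.53. Near E13, FOR_1522 over Cgn met an intergenic fragment 3300 kb away with 8.78 and 12.9. The gene start nearest to that fragment, of 9130204L05Rik, lay 377 kb from it. REV_1532 met an intergenic fragment 33.3 kb from the Sprr4 start with 4.71 and 15.3 (0.885 in thymocyte library 1). REV_1523 met an intron of Tuft1 with 4.22 and 5.05 against 5.36 and 0.957. Near E14, FOR_1595 met the fragment nearest to S100a16 described above, which is intergenic and 29.1 kb from that gene's start. It also met S100a10, with 6.50 and 13.5.

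The enhancer and gene pairs that the study named across the window each rested on few called contacts. The study named them from calls in these same keratinocyte libraries, so at least 1 keratinocyte call per pair was given in advance. For these pairs, here and below, the counts are therefore descriptions and do not compare the cell types. Over the whole series 1.99% of listed contacts were called in keratinocytes and 4.03% in thymocytes. For E13 with Mrpl9, 4 of 17 listed contacts were called in keratinocytes and 0 of 7 in thymocytes, and the mean Z score over the 7 contacts in all 4 libraries was 2.04 and 2.37 against 2.80 and -0.0386. The 4 called contacts joined the probes FOR_1428 and FOR_1432 to REV_1523, REV_1527 and REV_1534, and since the promoters of Mrpl9 and Oaz3 are neighbours the same 4 counted for E13 with Oaz3 (4 of 19 listed in keratinocytes, 0 of 10 in thymocytes). The thymocyte libraries differed widely here, so the groups overlapped. For E14 with Psmb4, 2 of 23 contacts were called in keratinocytes and 1 of 13 in thymocytes. For E14 with Lingo4, just left of the window, the counts were 2 of 10 and 1 of 4, and with Tdpoz3 in the gene-poor TAD5 they were 1 of 6 and 0 of 2.

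The S100 enhancers of TAD1 also reached the window. Over all contacts between the window and fragments within 10 kb of E2/E3, a cluster chosen here after values were seen, the mean Z score was 0.734 and 0.575 in keratinocytes and 0.0711 and 0.0597 in thymocytes (69 contacts; 7 of 191 called in keratinocytes, 3.66% where the series gave 1.99%, and 1 of 105 in thymocytes, 0.952% where the series gave 4.03%). By the median the values were 0.752, -0.162, 0.00827 and -0.314, which overlap. With Pi4kb, E2/E3 had 1 called contact of 35 in keratinocytes and 0 of 17 in thymocytes, with Pogz 2 of 36 and 0 of 15, and with Tuft1 2 of 11 and 1 of 11. For E4-E7 the mean over the window was 0.583 and 0.731 against 0.573 and 0.538 (103 contacts). The difference of 0.102 fell to 0.0279 without keratinocyte library 2, and the medians, 0.214 and 0.133 against 0.182 and -0.386, overlapped. Its called counts were 1 of 49 and 1 of 22 with Pi4kb, 1 of 53 and 0 of 28 with Pogz, and 1 of 17 and 0 of 7 with Mrpl9. The called contact with Pi4kb is the one of FOR_1595 with the fragment nearest to S100a16, described above.

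Of the enhancers of TAD4, E9 gave 1 called contact with Cgn in each cell type, of 14 listed in each, and E11 gave 2 with Pi4kb of 29 in keratinocytes and 2 of 19 in thymocytes. Over the whole window E9 had 2 called contacts of 357 in keratinocytes (0.560%, 1.99% in the series) and 14 of 215 in thymocytes (6.51%, 4.03% in the series). The mean Z score of the 170 E9 contacts was 0.292 and 0.665 against 0.668 and 0.878. By the median its order turned, with a difference of 0.393 in favour of keratinocytes. E1 near the start of the locus gave 0.453 and 0.362 in keratinocytes and -0.161 and 0.0623 in thymocytes (43 contacts), but the medians, 0.294 and 0.126 against 0.129 and 0.123, overlapped. For E8, E10, E11, E15 and E16 the groups overlapped, with 4 to 91 contacts each.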

How the data were processed

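The authors aligned paired reads to the 5C probes with Bowtie, counted forward-reverse pairs, removed deviating probes and contacts with a Z score of 25 or more, and smoothed frequency against distance by Loess in each library separately. Per library they deposited the corrected frequency of each contact (signal), its expected frequency and spread (signal), a Z score, p-values and q-values, and the distance in kb (other). Libraries were not scaled to a common total. Raw counts were not used here, so depth is unknown. Recomputed Z scores matched the deposited ones. Coordinates are mm9 (NCBIM37), with genes from the study's gene list and GENCODE vM1 and probes from the study's probe list.

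Members followed the midpoint rule. Library means over contacts listed in all 4 libraries were compared by two-sided exact permutation tests with Benjamini-Hochberg adjustment. Single contacts were fitted in limma 3.58.1 (R 4.3.3; lmFit, eBayes with trend) on all 23395 contacts and adjusted over all of them. In data simulated for this fit (23395 contacts, 200 shifted) with each contact's own spread, 0 of 200 shifts of 16 Z units were recovered and 189 of 200 shifts of 32, while with the median spread for every contact 191 of 200 shifts of 4 were recovered. Fragments within 10 kb were assigned to enhancers and to the promoters of named pairs. The named contacts were the 5 of each class with the highest lowest Z score over the calling libraries, the 3 leading keratinocyte contacts per enhancer and pairs the study names. Members and lists were chosen with earlier results of these data known. The libraries were biological replicates per the study's methods. Alternatives are given at the end. Some of the results that the naming rules select are not reported here.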

Additional observations from a re-analysis of the deposited data

Results flagged for a closer look

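Contacts within the window and contacts between the window and the rest of TAD6 moved in opposite directions in the 2 cell types relative to the rest of the locus, and the difference between cell types was not tested beyond the library values. Within the window the mean Z score minus that of contacts without a window fragment was 0.416 and 0.219 in keratinocytes and -0.0813 and -0.155 in thymocytes, a difference of 0.435. For the rest of TAD6 the same quantity was -0.698 and -0.425 in keratinocytes and 0.807 and 0.484 in thymocytes, a difference of -1.21.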

How the results depend on the processing

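The higher internal score in keratinocytes, the higher score toward the rest of TAD6 in thymocytes and the border contrast kept their direction under each alternative run for them, with ranges on leaving out a library of 0.256 to 0.413, -1.46 to -1.15 and 0.22 to 0.36. The position of that border was drawn from the keratinocyte libraries. Without 1 library the differences ran from -0.472 to -0.217 toward TAD7, -0.709 to -0.161 toward TAD5, 0.233 to 0.617 for the window minus TAD1 and -0.647 to -0.241 for E12. By the median over contacts, the sign turned toward TAD7 (0.0548), TAD4 (0.156) and TAD3 (0.0986), for E14 (0.143), for the window minus TAD7 (-0.223) and minus the rest of TAD6 (-0.0375), and for the window with E8 (0.0725), E9 (0.393) and E15 (0.0433). On the log2 scale it turned toward TAD1 (-0.00217) and for the window minus TAD7 (-0.14). Over the lists of each cell type it turned toward TAD1 (-0.0342), for E13 (-0.0497) and for the window minus TAD7 (-0.0888), and at 50 kb or more for the window minus the rest of TAD6 (-0.0595). Leaving out a library gave -0.0563 to 0.168 for E13, -0.137 to 0.168 for the window minus TAD7, -0.147 to 0.418 for the window minus the rest of TAD6, -0.0528 to 0.0577 at 50 to 200 kb and -0.0880 to 0.233 for E10. The cause was not tested. The number of genes lower in keratinocytes was 3 by the median in place of 12, and 10 to 14 without a library. At a q-value under 0.01 the calls were 162 in keratinocytes, 28 keratinocyte-specific and 16 common. Single libraries gave 1361 to 2037 keratinocyte and 1501 to 2129 thymocyte calls, since fewer libraries had to agree. limma made 0 calls in each setting, with the replicate number as a block also 0 (smallest adjusted p in the window 0.887). Deviations of keratinocyte library 1 and thymocyte library 1 correlated at r = -0.0937, so the numbers were not taken as pairs. The alternatives for segments and outside enhancers were chosen after seeing the data. The 2 libraries per cell type limit the precision of each comparison, and depth is unknown.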
